A study of Canis lupus familiaris with 186 samples.

Results

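The genes PTPRC, CD53, CD37, CD48, DOCK2, SASH3, FYB1, SAMSN1, EVI2B and IRF8 were followed across 186 canine osteosarcomas. They are 10 of the 37952 genes in the deposited table and are known from blood cells, most of them from many lineages. IRF8 is known mainly from dendritic cells, monocytes and B cells. They were chosen by a measured value, as leukocyte genes with the smallest p-values between the groups that the study had formed by clustering the same tumours on its gene signature GS-1. Their joint variation across these tumours is therefore a description here, with no test.

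Each library was made from the primary limb tumour of a different pet dog with osteosarcoma, a malignant bone tumour. The tumours were sampled before treatment, so the trials describe enrolment and not an effect of therapy on these samples. Title labels assigned 93 dogs to COTC021 and 93 to COTC022, clinical trials for client-owned dogs that later received carboplatin after amputation, some of them with rapamycin. The dogs varied in age, breed and sex, no normal tissue was compared, and the tumour samples were not sorted, so stromal and immune cells contribute RNA. In such bulk tissue, fewer leukocytes and less RNA per leukocyte cannot be told apart.

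Total counts ranged from 6587637 to 27420866 per library, with a median of 10797172. The column names of 50 libraries held a doubled low line, which the labels do not explain (double-line libraries), and these had 15803907 to 23214349 counts. The median of the other 136 libraries was 9851691. The double-line names belonged to 18 libraries of COTC021 and 32 of COTC022, so library naming and depth were not balanced between the trials. No pair of libraries agreed within sampling noise.

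A single library, COTC022 replicate 64, stood apart and went against its label of primary osteosarcoma. Its summed level of 14 osteoblast markers was 2588 CPM (counts scaled to a library total of 1000000), whereas the other 185 libraries ranged from 4713 to 227890 CPM. The osteoblast transcription factor SP7 was at 0.0633 CPM there (median of the others 23.3 CPM), DLX5 at 0.127 CPM (40.1 CPM), and the bone matrix gene DMP1 at 0. ALPL, which encodes the alkaline phosphatase of bone, was at 0.696 CPM there and at 697 CPM in the median of the others. Of the 14 markers, 4 had their lowest level in this library, ALPL and DLX5 among them. SP7 and DMP1 were as low as 0 among the other libraries. RUNX2 (126 CPM), SPP1 (478 CPM) and BGLAP (2.15 CPM) also lay within the range of the others. Summed T and NK cell markers reached 6392 CPM, and no other library exceeded 1285 CPM. It had the highest level of 21 of the 23 T and NK cell markers, including CD3E at 880 CPM. Results below are given with this library and, where it carries weight, without it.

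Pan-leukocyte genes encode parts of the machinery that blood cells of many lineages share. PTPRC (CD45) is the receptor tyrosine phosphatase that sets the activity of Src-family kinases in lymphocytes and myeloid cells. Tetraspanins such as CD53 and CD37 organise receptors into membrane domains, and the lipid-anchored protein CD48 is a ligand of the SLAM family receptor CD244 and of CD2. Inside the cell, DOCK2 activates Rac for migration, FYB1 (ADAP) links T cell receptor signals to integrins, and SASH3 (SLY1) and SAMSN1 (HACS1) are adaptors of lymphocyte signalling. IRF8 is a transcription factor of dendritic cells, monocytes and B cells. EVI2B is a transmembrane protein of blood cells. In tumours, genes of this kind are widely used to gauge how many leukocytes a sample holds.

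The members were scattered over the genome (UU_Cfam_GSD_1.0 coordinates, RefSeq gene bodies with exons and introns). PTPRC lies at chr7:3921322-4047618, CD53 at chr6:41528153-41547338, CD37 at chr1:107807087-107813087, CD48 at chr38:22440240-22456245 and SASH3 at chrX:101883353-101896898. DOCK2 and FYB1 share chromosome 4 but lie far apart, at chr4:42671083-43068964 and chr4:70643055-70793407. SAMSN1 lies at chr31:11917912-12187664, EVI2B at chr9:41502773-41513162 and IRF8 at chr5:67286849-67310056. EVI2B lies inside NF1, DOCK2 contains INSYN2B, and the CD37 gene overlaps TEAD2 at its end. SAMSN1 contains the protein-coding gene LOC100684485. CD53, DOCK2, FYB1, SAMSN1 and IRF8 overlap long noncoding RNA genes. Libraries were made with a strand-specific kit, but the strand setting of the counting is not given in the sources used here, so reads of these overlapping genes may have been shared.

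All 10 genes passed the filter on low counts, which 13422 genes passed. Levels are given in CPM on the library total and are compared between libraries, not between genes, since CPM does not account for transcript length. Among the surface proteins, PTPRC ranged from 12.2 to 485 CPM in COTC021 (median 61.3) and from 5.83 to 1583 CPM in COTC022 (median 64.0). The tetraspanin gene CD53 ranged from 2.04 to 250 CPM in COTC021 (median 18.0) and from 1.73 to 523 CPM in COTC022 (median 18.4). The trials overlapped over almost the whole range for each gene, and the upper end in COTC022 was the library that stood apart.

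CD37 was at 1.39 to 93.0 CPM in COTC021 (median 9.68) and 1.42 to 199 CPM in COTC022 (median 10.2). CD48 was at 2.25 to 208 CPM in COTC021 (median 16.0) and 2.46 to 280 CPM in COTC022 (median 16.8). Levels of EVI2B were 1.93 to 89.4 CPM in COTC021 (median 12.2) and 1.14 to 169 CPM in COTC022 (median 10.4). The lowest libraries of these surface genes came from both trials, with the minimum of CD37 and CD48 in COTC021 replicate 71.

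Of the intracellular signalling genes, DOCK2 was at 2.47 to 120 CPM in COTC021 (median 11.3) and 1.34 to 306 CPM in COTC022 (median 10.2). SASH3 was at 1.07 to 159 CPM in COTC021 (median 9.60) and 0.812 to 384 CPM in COTC022 (median 10.6). FYB1 was at 1.72 to 83.6 CPM in COTC021 (median 8.32) and 0.871 to 252 CPM in COTC022 (median 7.30). All 3 genes had their minimum in COTC022 and their maximum in COTC022 replicate 64. Without that library the highest levels in COTC022 were 89.7 CPM for DOCK2, 109 CPM for SASH3 and 64.0 CPM for FYB1, each below the highest level in COTC021.

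The adaptor gene SAMSN1, which restrains B cell activation, ranged from 0.833 to 68.4 CPM in COTC021 (median 5.95) and from 0.607 to 94.1 CPM in COTC022 (median 6.29). The transcription factor gene IRF8 ranged from 1.57 to 106 CPM in COTC021 (median 8.88) and from 1.15 to 271 CPM in COTC022 (median 8.91). SAMSN1 was the only member whose highest level was not in COTC022 replicate 64, where it ranked 2nd of 186 at 93.0 CPM. Counts behind the low end were small: SAMSN1 fell below 10 counts in 4 libraries, FYB1 and SASH3 in 1 library each, and the other members in none.

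**Figure D1:**
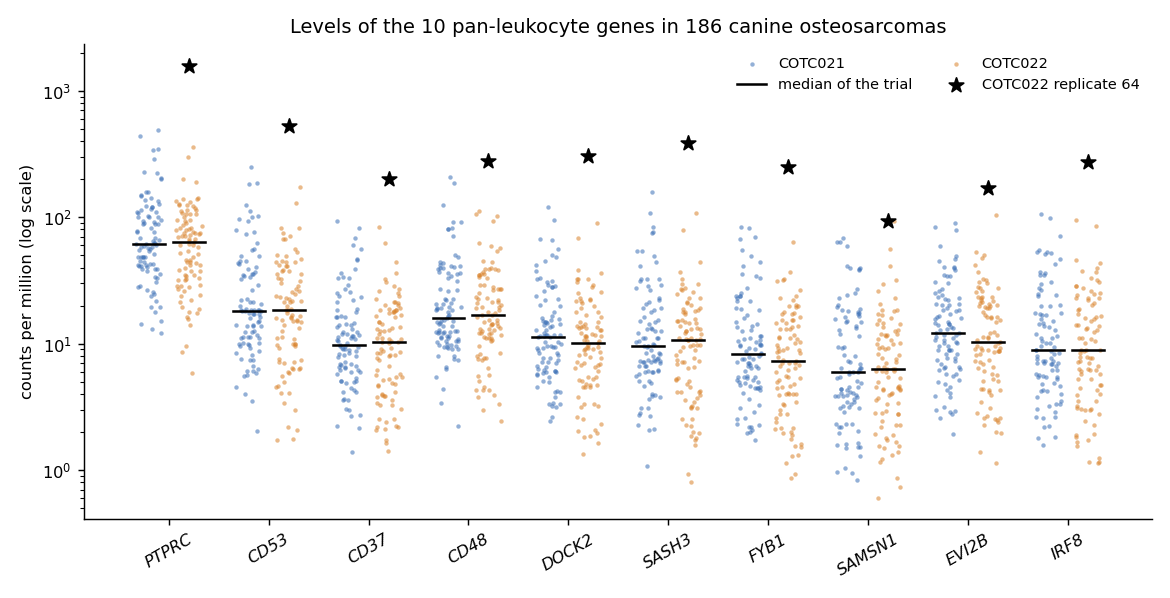
Levels of the 10 genes in CPM on a log scale (vertical axis), by gene and trial, with 1 point per library and a line at the median of each trial. The trials overlap throughout, and COTC022 replicate 64 (star) lies above all other libraries for every gene except SAMSN1.

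The spread between tumours was wide and differed by gene. The library at the 90th percentile exceeded that at the 10th by 6.44-fold for PTPRC and 7.10-fold for CD48, the narrowest of the 10 genes. For SAMSN1 and IRF8 the same fold was 14.8 and 13.9, the widest. On the log2 scale the standard deviation over the 186 libraries ran from 1.14 for PTPRC to 1.45 for SAMSN1, and 17.5% and 9.51% of all genes tested, respectively, varied more than these genes. Together the 10 genes took a median of 0.0159% of a library's counts, from 0.00221% in COTC022 replicate 78 to 0.406% in COTC022 replicate 64.

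The 10 genes rose and fell together. Over the 45 pairs, Pearson's r of the log2 levels (TMM-normalised CPM with a prior count of 2) had a median of 0.887, from 0.752 for PTPRC with IRF8 to 0.951 for CD53 with SASH3 (n = 186). Over all pairs of the genes tested the median r was -0.0035, and 0.0219% of those pairs exceeded the lowest pair of members. A single principal component held 89.2% of the members' standardised variance, and the next held 3.17%. Without COTC022 replicate 64 the median pair r was 0.877 and the lowest 0.733. These values describe genes that were picked on these tumours, and the points share depth and normalisation.

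Each gene was then set against the mean z-score of the other 9. CD53, the tetraspanin, followed the rest most tightly (r = 0.974, rho = 0.970), ahead of the adaptor SASH3 (r = 0.965, rho = 0.962). CD37, DOCK2 and FYB1 lay between 0.946 and 0.949, and CD48 and EVI2B at 0.931 and 0.924. For CD53, SASH3 and DOCK2, none of the 13412 genes outside the list had a higher r with the other 9 members. At the loose end stood SAMSN1 (r = 0.904), IRF8 (r = 0.888) and PTPRC (r = 0.876), which ranked 30th, 52nd and 68th by this measure. IRF8 was the noisiest around its line on the other members, with a residual standard deviation of 0.656 on the log2 scale, compared with 0.321 for CD53.

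PTPRC, the gene most often used as the leukocyte marker, was the least steep. Its log2 level changed by 0.788 per unit of the mean log2 level of the other 9, whereas the slopes of the others ran from 0.898 for CD48 to 1.12 for CD53. The 2 lowest pair correlations were those of PTPRC with IRF8 and with SAMSN1 (r = 0.779).

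**Figure D2:**
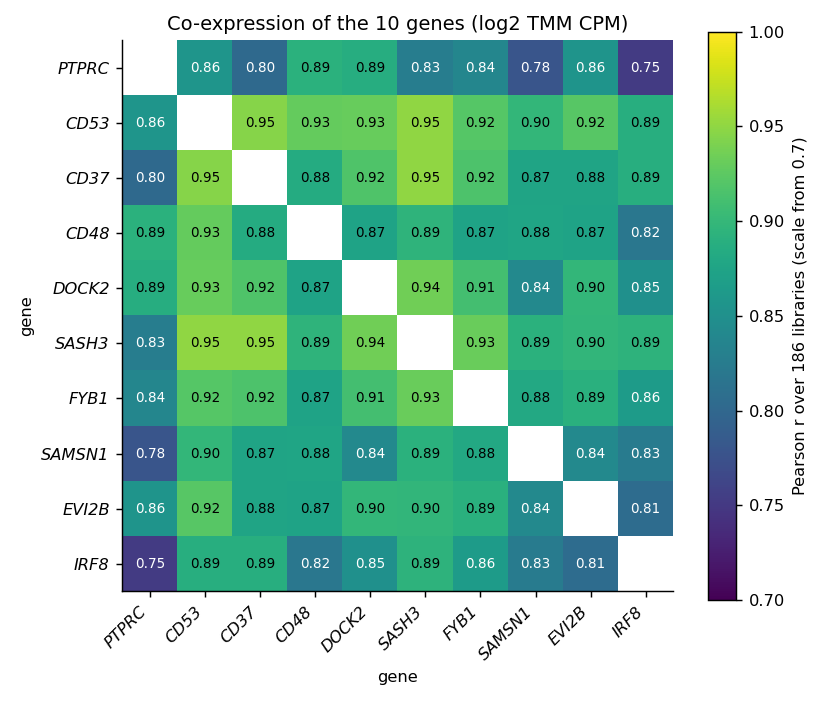
Pearson's r of the log2 TMM CPM for each pair of the 10 genes over 186 libraries (rows and columns are genes, the colour scale starts at 0.7). Values run from 0.75 for PTPRC with IRF8 to 0.95 for CD53 with SASH3, and the row of PTPRC holds the 3 lowest pairs.

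The mean z-score of the 10 genes served as a leukocyte content index per tumour. It ranged from -1.96 in COTC022 replicate 78 to 3.49 in COTC022 replicate 64, and COTC021 replicate 12 was next at 2.66. The index of 83 of 186 libraries was above 0. In COTC021 it ran from -1.82 to 2.66 (median -0.10) and in COTC022 from -1.96 to 3.49 (median -0.07), so the trials overlapped. An index of 9 genes, with each member left out in turn, correlated with the full index at r between 0.9987 and 0.9997. Since the full index holds the same 9 genes, an r near 1 is largely set by this overlap. The index was only weakly related to the log2 of the library total (r = -0.111, rho = -0.095).

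Other leukocyte genes, none of them members, tracked the index. The mean z-score of 22 further pan-leukocyte genes correlated with it at r = 0.912 (rho = 0.90), and 16 of them had r above 0.7, compared with 2.10% of all non-member genes. IKZF1, a lymphoid transcription factor (r = 0.947), MYO1F, a myosin of leukocytes (r = 0.941), PTPN6, the phosphatase SHP-1 (r = 0.915), and ITGB2, the shared integrin chain CD18 (r = 0.914), led this list. RAC2, the Rac of blood cells (r = 0.449), and CD84, a SLAM family receptor (r = 0.233), trailed it. The list was chosen with earlier results of these data known and is not independent support.

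By cell type, the index was closest to the 20 macrophage markers (r = 0.925, rho = 0.937), led by AIF1 (r = 0.922), MPEG1 (r = 0.911), CD86 (r = 0.896) and MS4A7 (r = 0.852). The macrophage genes CD68 (r = 0.251) and MARCO (r = 0.491) followed it least. Lymphoid markers were scarcer: only 9 of 23 T and NK cell markers and 3 of 15 B and plasma cell markers passed the filter. The T and NK score gave r = 0.788 (rho = 0.729), with GZMK, a granzyme (r = 0.803), CD3E (r = 0.795), CD4 (r = 0.732) and GZMB (r = 0.713) in front and CD247 (r = 0.397) last. The score of BLNK, CD22 and JCHAIN gave r = 0.877, that of 7 dendritic cell markers r = 0.813, and that of 7 neutrophil markers r = 0.567. Mast cell and eosinophil markers had only 2 detected genes, GATA2 and KIT (score r = -0.218).

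Genes of bone and of dividing cells ran the other way or did not follow. The score of 14 osteoblast markers correlated with the index at r = -0.430 (rho = -0.338), and at r = -0.369 without COTC022 replicate 64. Without the 2 libraries farthest from the median index, COTC022 replicate 64 and COTC021 replicate 12, it was -0.341. Within the double-line libraries, with COTC022 replicate 64 among them, it was -0.608, and within the others -0.346. The value of the double-line libraries without that library was not computed. SP7 (r = -0.528) and DLX5 (r = -0.502) were lowest, whereas SPP1, the osteopontin gene (r = 0.252), was positive. The score of 12 proliferation genes gave r = -0.337, with TYMS (r = -0.470) and MCM2 (r = -0.401) lowest. Osteoclast markers, which also derive from the monocyte lineage, gave r = 0.126, with CTSK at 0.239, and endothelial markers r = 0.254. All of these levels are shares of the total of their library.

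**Figure D3:**
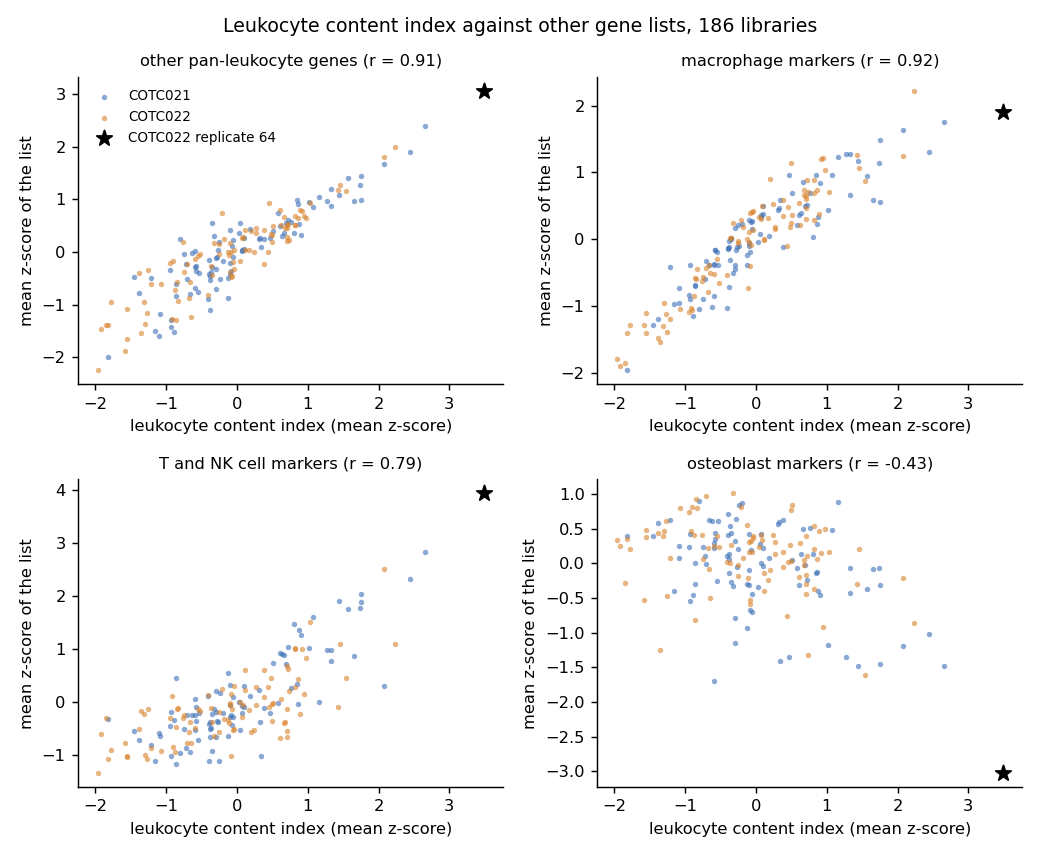
Leukocyte content index (horizontal axes, mean z-score of the 10 genes) against the mean z-score of 4 other gene lists (vertical axes), 1 point per library. The index follows the other pan-leukocyte genes, the macrophage markers and, more loosely, the T and NK cell markers, and falls against the osteoblast markers, where COTC022 replicate 64 (star) is the lowest point.

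Among single genes outside the list and with a gene symbol, the 10 whose pattern was most like the index over the 186 libraries had r from 0.949 to 0.922. Among them were ARHGAP30, IKZF1, MYO1F, CTSS, CASP4, DLA-DMB, GIMAP6, DLA-DRA and AIF1. ARHGAP30, a GTPase activating protein, ranged from 1.07 to 253 CPM (median 11.1). CTSS, the lysosomal protease cathepsin S, ranged from 17.3 to 2469 CPM (median 144), and the MHC class II gene DLA-DRA from 15.7 to 4039 CPM (median 185). In all, 281 of 13412 non-member genes had r above 0.7, and 33 had r above 0.9. In the other direction, 37 genes had r below -0.5. Without COTC022 replicate 64 the counts were 259, 30 and 10.

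Partners of the members from fixed pathway lists were less uniform. These lists share genes with the other pan-leukocyte genes above, among them PTPN6, VAV1, CORO1A, WAS, ITGB2, ITGAL and FERMT3. They are not separate evidence. Of all non-member genes, 2.10% had r above 0.7. On the CD45 and Src-family kinase axis, 4 of 13 detected genes had r above 0.7 with the index, namely PTPN6 (0.915), the kinase FGR (0.902), the adaptor SLA (0.840) and the B cell and myeloid kinase BTK (0.717). LCK, the T cell kinase that CD45 activates, was at 0.675, LYN at 0.469, CSK at 0.260 and FYN at 0.065. Of 17 genes on the DOCK2, Rac and actin axis, 5 were above 0.7, among them VAV1 (0.907), CORO1A (0.884), WAS (0.864) and DOCK8 (0.805). ELMO1, the binding partner of DOCK2, was at 0.094, and the ubiquitous relative DOCK1 was at -0.137.

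On the FYB1 axis, 3 of 12 genes exceeded 0.7, the integrin chains ITGB2 (0.914) and ITGAL (0.883) and the integrin activator FERMT3 (0.731). The direct FYB1 partners SKAP1 and LCP2 (SLP-76) were at 0.601 and 0.477. Receptors around CD48 held 4 of 7, with LY9 (0.913), CD2 (0.881), SLAMF8 (0.865) and SLAMF7 (0.732), whereas CD244, the CD48 receptor, did not pass the filter (median 0.645 CPM). None of 19 detected tetraspanins besides the 2 members exceeded 0.7, and CD81 was highest (0.570) and TSPAN33 lowest (-0.212). Of the interferon regulatory factor list, IRF5 (0.815) and IRF2 (0.746) exceeded it, IRF1 was at 0.656, and SPI1 (PU.1), a partner of IRF8, was at 0.573. SASH1, the paralog of SASH3, was at -0.120.

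Whether the members followed lymphoid or myeloid content was asked with 4 scores fitted together, T and NK, macrophage, B and plasma, and neutrophil, each scaled to a standard deviation of 1. A slope is the log2 change of a gene per standard deviation of a score, with the other scores, the trial and the library name held in the fit. Rising with leukocyte scores in general was set by the choice of the members. The separate T and NK and macrophage slopes are therefore given without a test, and the question tested was the difference between them. The choice may also have favoured genes that follow 1 lineage more, so this difference may not be independent of it. How far it did was not tested. The macrophage slope exceeded the T and NK slope for all 10 genes in this fit, and for all but IRF8 by edgeR. The difference (T and NK minus macrophage) passed the limma test for 7 of 10 genes, all negative, where 7.93% of all 13422 genes tested were called negative. The median difference was -0.37 over the members and 0.01 over all genes.

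EVI2B leaned furthest to the macrophage score, with slopes of -0.01 on T and NK and 0.88 on macrophages (difference -0.89, SE 0.087, limma adjusted p = 2.7e-17). CD53 (difference -0.63, SE 0.067, limma adjusted p = 2.6e-15) and CD37 (difference -0.62, SE 0.074, limma adjusted p = 2.1e-12) followed. DOCK2 (-0.39), CD48 (-0.38), FYB1 (-0.36) and SASH3 (-0.31) differed as well. The 3 members without a call were SAMSN1 (-0.27, SE 0.111, limma adjusted p = 0.085), PTPRC (-0.15, SE 0.097, limma adjusted p = 0.29) and IRF8 (-0.14, SE 0.103, limma adjusted p = 0.36). Without COTC022 replicate 64 the difference was called for 7 members as before, from -0.36 for SASH3 to -0.95 for EVI2B. Within COTC021 alone and within the double-line libraries alone, 3 members were called in each, with all 10 estimates negative. In these smaller fits 2.76% and 1.06% of all genes were called negative, respectively.

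The score of macrophages rested on 20 detected markers and that of T and NK cells on 9, CD4 among them, which dog neutrophils also carry. The part of marker number in the difference was not tested. The scores were correlated with each other (r = 0.631 between T and NK and macrophage). The B and plasma score, held in the same fit, correlated at r = 0.795 with the macrophage score and 0.723 with the T and NK score. Among other pan-leukocyte genes, 13 of 22 had a called difference, all negative, the neighbour of EVI2B in NF1, EVI2A, furthest (-1.04). LCK (1.53) and SKAP1 (1.45), by contrast, were called in the direction of the T and NK score.

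**Figure D4:**
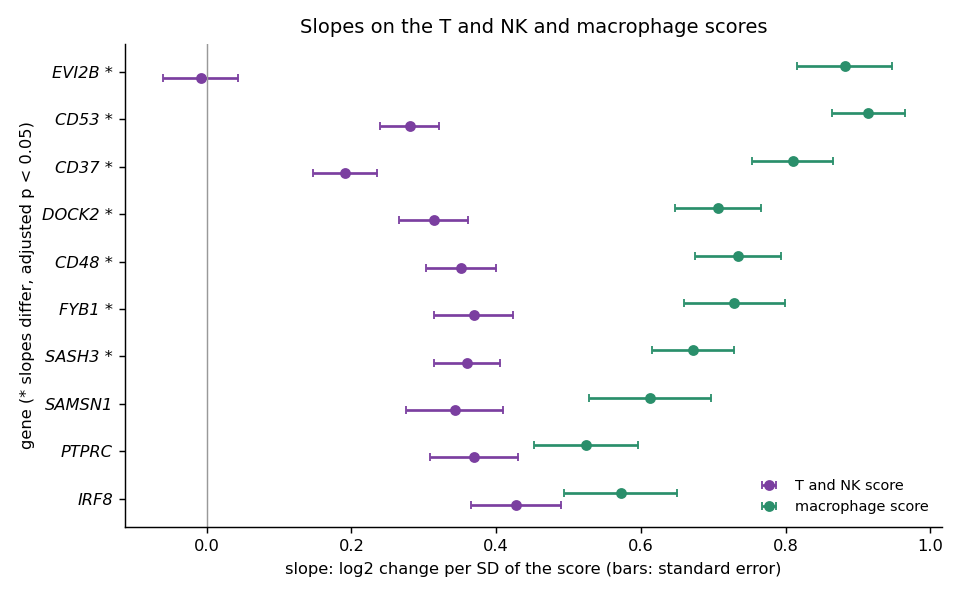
Slopes of the 10 genes on the T and NK score (purple) and the macrophage score (green), as log2 change per standard deviation of the score, with bars for the standard error, fitted over 186 libraries. Genes are ordered by the difference of their slopes, from EVI2B (-0.89) to IRF8 (-0.14), and an asterisk marks the 7 genes with a called difference.

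On the B and plasma score, 9 of 10 genes were called with a positive slope, as were 5.80% of all genes tested. The choice of the members favoured a rise with leukocyte scores, so these calls and p-values are descriptive and not an independent result. Slopes were highest for SASH3 (0.41, SE 0.054, limma adjusted p = 1.1e-09) and IRF8 (0.41, SE 0.075, limma adjusted p = 3.7e-05), and CD48 was the exception (0.06, SE 0.060, limma adjusted p = 0.53). This score held only CD22, BLNK and JCHAIN, while MS4A1 and CD79A did not pass the filter. It correlated with the macrophage score at r = 0.795. How far its slopes stand for B-lineage content alone was not tested. Within COTC022 alone 2 members were called, and 0.387% of all genes were called positive. Within the double-line libraries limma called no member and 0.149% of all genes, and 3 members had an unadjusted p under 0.05, as had 1291 of all genes.

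On the neutrophil score, 2 of 10 genes were called positive, beside 4.52% of all genes tested. These were SAMSN1 (0.25, SE 0.056, limma adjusted p = 0.0017) and CD48 (0.16, SE 0.040, limma adjusted p = 0.0052). Here too the choice of the members favoured positive slopes, so the calls are descriptive. The other 8 slopes lay between -0.08 for DOCK2 and 0.06 for CD53. The highest SAMSN1 level of all libraries was in COTC022 replicate 32, which also had the highest summed neutrophil markers (1556 CPM). Neither gene was called within COTC021 alone, where 0.179% of all genes were, with slopes of 0.15 for SAMSN1 and 0.05 for CD48. The same held within the double-line libraries alone, where 0.253% of all genes were called and the slopes were 0.15 and 0.10.

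Levels were next compared between the trials, the single grouping that the sample labels give. In the limma fit none of the 10 genes differed, and 0.0149% of all genes tested did. Log2 differences (COTC022 minus COTC021) ran from -0.07 for SAMSN1 (SE 0.213, limma adjusted p = 0.95) to -0.30 for FYB1 (SE 0.198, limma adjusted p = 0.65). PTPRC was at -0.19 (SE 0.167, limma adjusted p = 0.76) and CD53 at -0.16 (SE 0.206, limma adjusted p = 0.86). At an unadjusted p under 0.05 the limma count was 0 of 10 members and 1332 of 13422 genes. By edgeR 129 genes and by DESeq2 91 genes were called, again with no member among them. The members at an unadjusted p under 0.05 were 0 by edgeR, where 1824 genes were, and 4 by DESeq2, where 1937 genes were. Without COTC022 replicate 64 the differences ran from -0.13 to -0.37, with 0 members called by limma and 0 at an unadjusted p under 0.05. Over all genes these counts were 2 and 1401.

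The trial difference did not have the same sign in the 2 sets of library names. In the 50 double-line libraries all 10 genes were higher in COTC022, with log2 differences from 0.35 for CD37 to 0.82 for SAMSN1 (median 0.57). In the other 136 libraries all 10 were lower in COTC022, from -0.34 for CD48 to -0.62 for FYB1 (median -0.45). The mean index was -0.38 and 0.05 in COTC021 and COTC022 among the double-line libraries, and 0.18 and -0.14 among the others. Without COTC022 replicate 64 the mean of COTC022 among the double-line libraries was -0.06 (median 0.11). With that library kept, the medians of the index were -0.47 and 0.14 among the double-line libraries. Among the others they hardly differed, at -0.06 and -0.08. No member was called within either set by limma, and at an unadjusted p under 0.05 the counts were 0 and 5 of 10. Over all 13422 genes, limma called 0 and 8, and 831 and 1909 had an unadjusted p under 0.05. Since the 10 genes are correlated, their common sign counts as little more than a single observation.

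Whether the trial difference itself differed between the sets was tested by the interaction term. In the limma fit no member was called, as 0% of all 13422 genes were. The estimates ran from 0.74 for CD37 to 1.26 for SAMSN1, and 9 of 10 members had an unadjusted p under 0.05, as had 1466 of all genes. By edgeR's quasi-likelihood test 9 of 10 members were called positive, CD37 excepted, beside 2.00% of all genes. Leaving out COTC022 replicate 64, which is in the double-line set, left 1 member called by edgeR, PTPRC (1.38, edgeR adjusted p = 0.046), beside 0.715% of all genes. In the limma fit without it, 7 members had an unadjusted p under 0.05, as had 1160 of all genes, and no gene was called. The median estimate of the members went from 1.91 to 1.35 by edgeR and from 1.03 to 0.89 in limma. All 10 members had an unadjusted p under 0.05 in both edgeR fits, beside 1865 and 1548 of all 13422 genes. The number of genes that edgeR called in either direction went from 293 to 110.

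**Figure D5:**
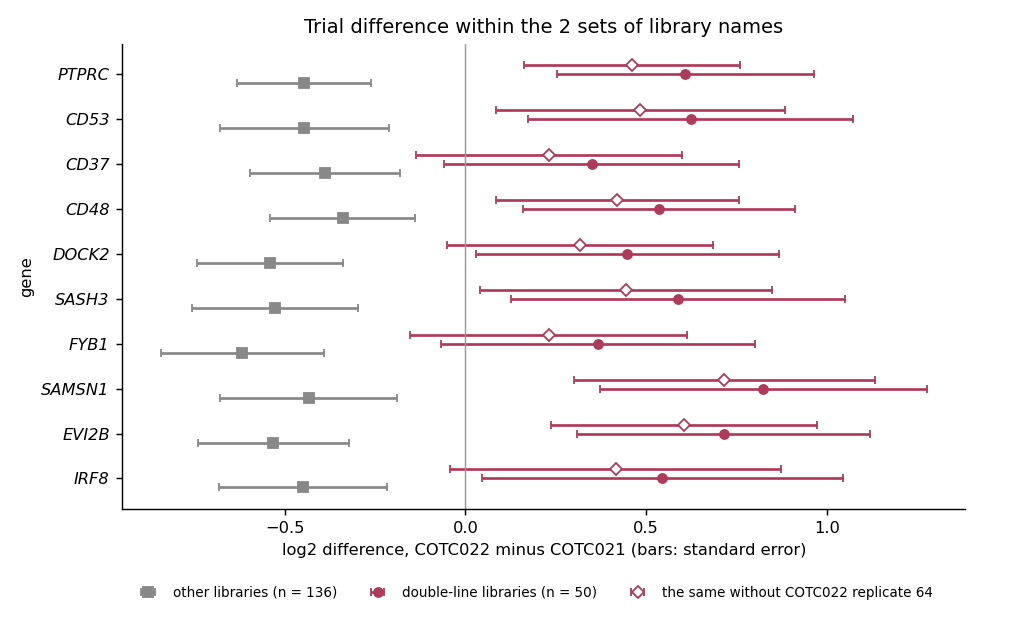
Log2 difference between the trials (COTC022 minus COTC021, horizontal axis, bars for the standard error) for the 10 genes within the other 136 libraries (squares), the 50 double-line libraries (filled circles) and the latter without COTC022 replicate 64 (open diamonds). Differences are below 0 in the other libraries and above 0 in the double-line libraries, and no gene was called in any of the 3 comparisons.

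Between the sets of library names, with the trial in the fit, none of the 10 genes was called, whereas 4.27% of all genes tested were. Estimates ran from -0.46 for SAMSN1 (SE 0.230, limma adjusted p = 0.26) to 0.01 for IRF8. As for the interaction, the sign differed by trial. Within COTC021 all 10 genes were lower in the double-line libraries (log2 differences from -1.18 for SAMSN1 to -0.45 for CD37, median -0.75), with 8 at an unadjusted p under 0.05. Within COTC022 all 10 were higher (0.08 for CD48 to 0.46 for IRF8, median 0.29), with 0 at an unadjusted p under 0.05. No member was called by limma in either trial, where 146 genes in COTC021 and 89 in COTC022 were. An unadjusted p under 0.05 was seen for 2252 of 13422 genes in COTC021 and 1902 in COTC022. Here too the members are correlated, so their common sign counts as little more than a single observation. In the limma fit over both trials, SAMSN1 was the only member at an unadjusted p under 0.05, beside 2471 of all genes. By edgeR 0 members and 5.16% of all genes were called, and by DESeq2 0 members and 5.34%.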

How the data were processed

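RNA from 186 primary canine osteosarcomas had been sequenced as paired reads from stranded mRNA libraries. The authors aligned the reads with STAR 2.7.0f and estimated gene abundance with RSEM 1.3.1, per the labels, and deposited expected counts per gene, not normalized. The deposited expected counts were rounded to whole numbers (3.07% were not whole). Of 198 columns, 12 match no sample analysed here and were not used. Library totals (6587637 to 27420866) limit the precision of genes near 10 counts.

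Genes with few counts were removed by filterByExpr, whose minimum count was 10, large.n 5 and min.prop 0.5. TMM factors were used, and the voom method of limma 3.58.1 was run under R 4.3.3, with Benjamini-Hochberg adjustment over all 13422 genes and calls at adjusted p under 0.05. All tests were two-sided. Alternatives used edgeR 4.0.16 and DESeq2 1.42.0. Scores are mean z-scores of log2 CPM (prior count 2), and correlations used Python 3.11.15. In simulated data for the trial comparison (13422 genes), limma recovered 62 of 100 genes changed by 0.5 on the log2 scale. It recovered 90 of 100 changed by 1, with 8 false calls in all. The changed genes were drawn at random, whereas the members were among the more variable genes (at most 17.5% varied more than a given member). The recovery for the members is therefore not given by these counts.

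Members and lists were chosen with earlier results of these data known. Beside members, the named genes are the 10 with the highest r with the index and, per list, up to 4 with the highest and 2 with the lowest r, and partners or paralogs of members, of which a few are not reported here. Markers of COTC022 replicate 64, LCK, SKAP1 and EVI2A slopes and fits without that library were chosen after seeing the data. Outcome and the GS-1 groups were not analysed here, since the sample labels do not give them.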

Additional observations from a re-analysis of the deposited data

How the results depend on the processing

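No paired analysis was possible because each library comes from a different dog and the replicate numbers only name the samples. The count of members called stayed at 0 for the trial and for the library name under every alternative run, including edgeR, DESeq2, RLE factors and no low-count filter. For the interaction it was 9 by edgeR and 1 by edgeR without COTC022 replicate 64, against 0 in the limma fits. The T and NK minus macrophage count was 3 within COTC021 and 3 within the double-line libraries, each a fit of fewer samples, and 7 or 8 under the other alternatives. The B and plasma count was 2 within COTC022 and 0 within the double-line libraries, and the neutrophil count 0 within COTC021 and 0 within the double-line libraries. The correlation of the index with the other pan-leukocyte score was 0.934 in the double-line libraries. Fits without COTC022 replicate 64, and without that library and COTC021 replicate 12, were added after seeing the data and changed no limma count of members called.

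Signs turned for the trial difference, all without a call. Within the double-line libraries the log2 differences were 0.35 for CD37, 0.54 for CD48, 0.62 for CD53, 0.45 for DOCK2, 0.71 for EVI2B, 0.37 for FYB1, 0.54 for IRF8, 0.61 for PTPRC, 0.82 for SAMSN1 and 0.59 for SASH3. Without COTC022 replicate 64 they were 0.23 for CD37, 0.42 for CD48, 0.48 for CD53, 0.32 for DOCK2, 0.61 for EVI2B, 0.23 for FYB1, 0.42 for IRF8, 0.46 for PTPRC, 0.72 for SAMSN1 and 0.44 for SASH3. Over all libraries, edgeR gave 0.056 for IRF8, 0.00066 for PTPRC and 0.0027 for SASH3, and DESeq2 gave 0.043 for IRF8. The library-name difference was positive for all 10 members within COTC022 (0.078 for SAMSN1) and for 7 of 10 by edgeR, against 1 of 10 in the limma fit over both trials. The T and NK minus macrophage slope of IRF8 was 0.073 by edgeR. The B and plasma slope of CD48 was -0.014 within COTC022 and -0.098 within the double-line libraries. The T and NK slope of EVI2B, -0.0084 as reported, was 0.0029 with no low-count filter, 0.039 within COTC022, 0.088 within the double-line libraries and 0.15 with only the T and NK and macrophage scores in the fit. The cause of these changes was not tested. Depth limits SAMSN1 most, with a median of 70 counts per library.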
